A study of Mus musculus with 2 samples.

Results

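Genes of primary cilium transport, the ciliary transition zone and the centrosome were compared between mouse embryonic stem cells that overexpressed ID2 and control cells. The members were the genes whose symbol belongs to the Ift, Bbs, Tctn, Ttc, Cep or Nphp series or is Mks1, Rpgrip1l, Arl13b, Arl3, Arl6, Ofd1, Dync2h1 or Dync2li1, with a mean normalized value over both libraries of at least 50. Of 104 genes with such a symbol, 101 reached that floor, out of 12679 genes above it in a table of 14398. The selection by symbol is wider than the cilium itself. It took in 46 genes of ciliary roles, 6 of centriole duplication, 23 other Cep genes, which encode centrosomal proteins of many functions, and 26 other Ttc genes, which as a group share only a tetratricopeptide repeat. Some of these other genes also act in cilia, Cep41 and Ttc25 among them, so the other members are not a set without ciliary genes.

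RNA sequencing was done on the 46C line of mouse embryonic stem cells, which carries GFP at the neural locus Sox1. One culture (PB-ID2) overexpressed ID2, a helix-loop-helix protein that binds E proteins and keeps them off DNA, and the other (PB) carried the empty vector. Both were cells of passages 21-24 grown on gelatin with serum and LIF, and each gave 1 library. With 1 library a group there is no replicate check, no error and no test: every value below describes these 2 libraries, and no difference between them can be set against the variation between cultures. Values are the authors' normalized values, whose sequencing depth is unknown, and ratios are log2 of the PB-ID2 value over the PB value after 1 was added to each. Id2 stood at 26225 in PB-ID2 cells and 324 in PB cells, in the direction the labels give. The stem cell markers Pou5f1, Sox2, Nanog, Zfp42 and Esrrb were among the abundant genes, at 13619 to 20873 in PB-ID2 cells and 9009 to 14946 in PB cells. All 5 stood higher in PB-ID2 cells, beside 49.8% of all genes above the floor. Their ratios ran from 0.09 (Pou5f1) to 0.85 (Zfp42), with a median of 0.37.

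A primary cilium is a microtubule-based projection that grows from the older centriole. Intraflagellar transport (IFT) particles carry cargo along it, with IFT-B and kinesin-2 moving toward the tip and IFT-A and dynein-2 moving back, while the BBSome, the complex affected in Bardet-Biedl syndrome, carries membrane proteins out of it. The transition zone at its base acts as a gate, and Hedgehog signaling in mammals runs through the cilium. In the mouse embryo, primary cilia appear on the epiblast after implantation. Promoters of many ciliary genes hold an X-box, the palindromic site of RFX transcription factors, one arm of which reads GTTGC.

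The letters GTTGC were searched on both strands from 250 bases before to 50 bases after each start site, in RefSeq windows of the build GRCm38.p6. Promoter windows were matched for 84 of the 101 members. The half-site was found in 30 of 39 genes of ciliary roles (76.9%) and in 21 of 45 other members (46.7%), against 39.8% of 9397 matched genes above the floor and 38.6% of all 27025 genes with a window. The following windows of 30 bases are shown because they place the half-site in IFT and BBSome members with higher and with lower ratios. Windows of the 2 members with an exact palindrome, defined below, are added. Each is read 5′ to 3′ on the strand named, with every GTTGC, or the exact palindrome where there is one, in capitals. The Ttc8 window holds 2 half-sites and each of the other IFT and BBSome windows 1.
Ttc8 (chr12:98920550-98920579, + strand): cGTTGCgcGTTGCtcagcaaagccagacgc
Bbs1 (chr19:4906605-4906634, - strand): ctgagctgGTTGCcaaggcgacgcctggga
Ift74 (chr4:94614478-94614507, + strand): cggtgaccGTTGCtaggatacgcggcgtcg
Ift27 (chr15:78174069-78174098, - strand): tgatgatgGTTGCcaggagcctgtttggcg
Ift52 (chr2:163017273-163017302, + strand): taatagcaGTTGCtagcaaatgaacaatat
Ift172 (chr5:31291093-31291122, - strand): gcactcacGTTGCctgtgcgtcagcggtta
Ift88 (chr14:57424076-57424105, - strand): gcccagccGTTGCcaggcgcgactccaagg
Ift57 (chr16:49699226-49699255, + strand): gccctgcgGTTGCctggtaacggtggggac
Cep41 (chr6:30693858-30693887, - strand): gtcccgcGTTGCCCTTGGCAACcattgagc
Tctn1 (chr5:122264411-122264440, - strand): gcgctaggctgtgactGTTGCCCGGGCAAC

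The exact palindrome, GTTGC followed by 2 to 5 bases and GCAAC, was found in 2 of the 84 members, Cep41 and Tctn1, and in 0.503% of all genes with a window. Their ratios went opposite ways, 0.61 for Cep41 and -0.33 for Tctn1. Looser forms of the X-box were not searched, so a window shown for its half-site may also hold such a form. Among the 39 ciliary genes the median log2 ratio was 0.02 in the 30 with a half-site and -0.06 in the 9 without one. E-box letters, which E proteins can bind, were also counted. CAGCTG lay in 7 of the 39 ciliary windows (17.9%), beside 18.3% of all windows, and CACCTG on either strand in 5 of 39 (12.8%), beside 22.6%. The median ratio of the 7 ciliary genes with CAGCTG was -0.06 and that of the 5 with CACCTG was -0.07. A match of letters is a description and shows no binding.

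Most members stood at nearly the same value in both libraries. The median log2 ratio over the 101 members was 0.01, with 53 above 0, beside 49.8% of all genes, and 48 below (50 and 50 on the whole-number scale beneath the values, with 1 equal), and the median over all 12679 genes was -0.00229. The sorted whole numbers are the same in both libraries, so a shift of all genes together could not show in these values. Of the members, 78 (77.2%) lay within 1.25-fold between libraries, beside 65.3% of all genes above the floor. The summed value of the members was 101636 in PB-ID2 cells and 101103 in PB cells. At least 2-fold higher in PB-ID2 cells were 3 members (Ttc30b, Bbs12 and Bbs10), where 2.53% of all genes were, and at least 2-fold lower were 0 members, where 1.86% of all genes were. At the smaller size of 1.5-fold, 5 members were higher and 1 lower, beside 8.00% and 6.59% of all genes. In the authors' deposited table no member had an unadjusted p under 0.05, as 4.33% of all genes above the floor had, and every member had an adjusted p of 1. Those p-values rest on 1 library a group, without a measured spread.

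**Figure D1:**
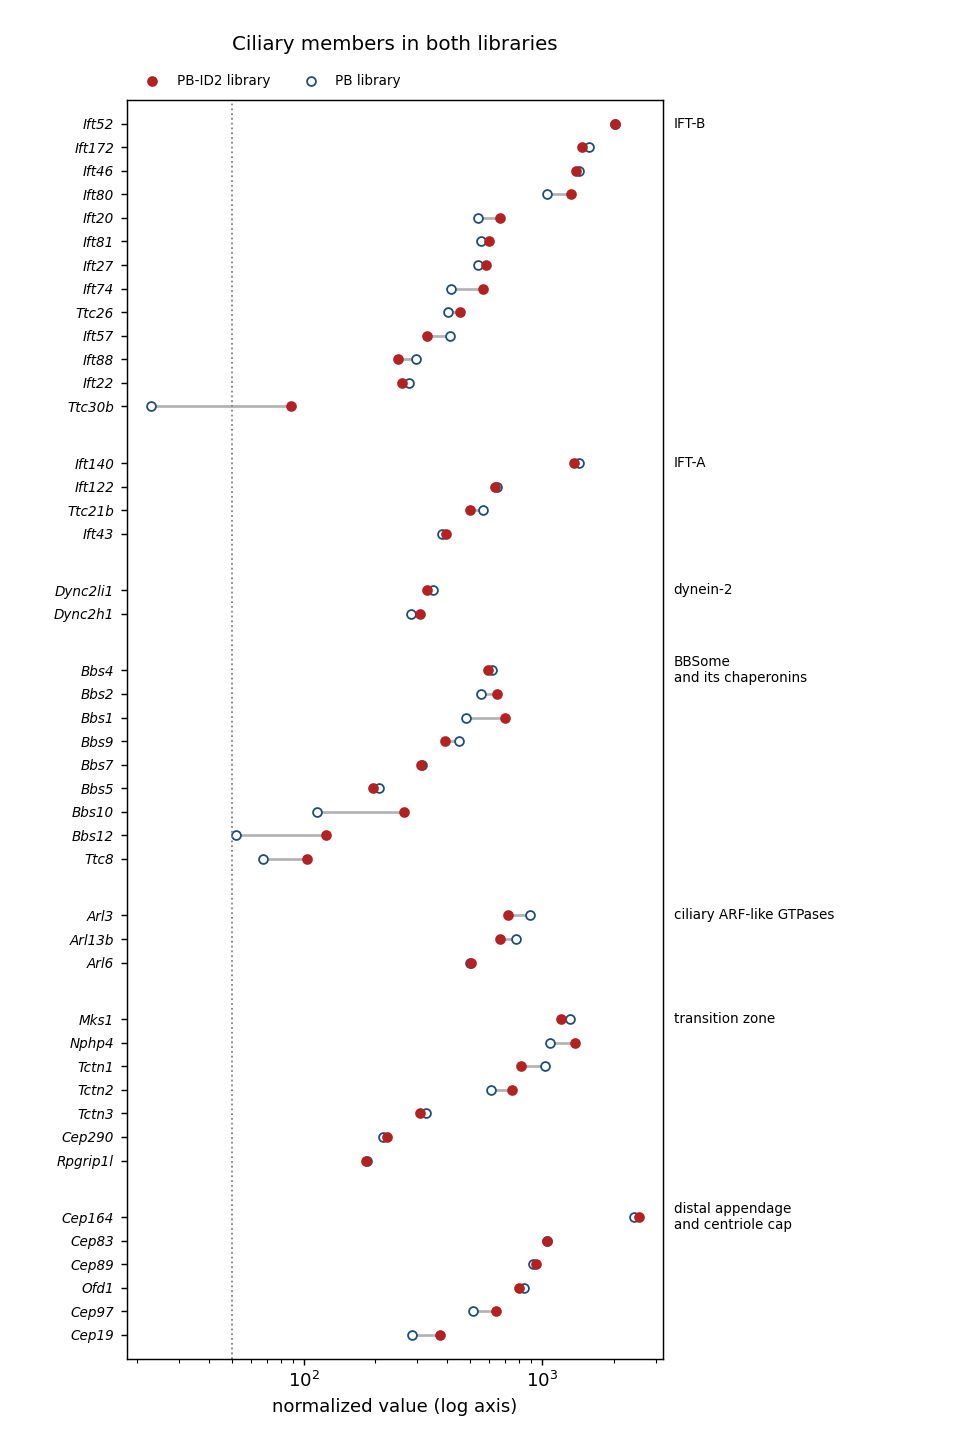
Normalized value (log axis) of 44 genes of ciliary roles in the PB-ID2 library (filled points) and the PB library (open points), grouped by role. The dotted line marks 50, the floor on the mean of both libraries. Most pairs of points nearly coincide, and Ttc30b, Bbs10 and Bbs12 are far apart.

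IFT-B, the particle of transport toward the tip, was represented by 13 members with a median log2 ratio of 0.11, of which 7 stood higher and 6 lower in PB-ID2 cells. Ift52, a subunit of the stable core, stood at 2015 in PB-ID2 cells and 2024 in PB cells. Its core partners Ift74 and Ift81, which bind tubulin as a pair, stood at 565 and 601 in PB-ID2 cells, against 414 and 553 in PB cells. The ratios of that pair therefore differed, at 0.45 for Ift74 and 0.12 for Ift81. Ift88, whose loss abolishes cilia in mouse, stood at 248 in PB-ID2 cells and 295 in PB cells. Ift46, another core subunit, stood at 1393 in PB-ID2 cells and 1425 in PB cells. Ift22, a small GTPase-like subunit, stood at 257 in PB-ID2 cells and 277 in PB cells. These 3 ratios lay between -0.25 and -0.03.

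Ift172, a large peripheral subunit, stood at 1465 in PB-ID2 cells and 1570 in PB cells. Ift80, a peripheral subunit needed for ciliary assembly, stood at 1318 in PB-ID2 cells and 1051 in PB cells. Ift57, which holds the peripheral part together with Ift20, had the lowest ratio of the particle, at -0.31 (331 in PB-ID2 cells and 410 in PB cells). Ift20, which also serves traffic from the Golgi, went the other way, at 663 in PB-ID2 cells and 537 in PB cells. Exons of Ift57 and of Ift88 overlap genes on the other strand, so the separate values of both are uncertain. Ift27, a small GTPase that links IFT-B to BBSome export, stood at 581 in PB-ID2 cells and 538 in PB cells. Ttc26, the subunit also called IFT56, stood at 454 in PB-ID2 cells and 402 in PB cells. Per kilobase of transcript, Ift52 was the most abundant IFT-B member in both libraries (896 per kb in PB-ID2 cells and 900.4 in PB cells) and Ttc30b the least (32.3 and 8.36 per kb).

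Ttc30b had the highest ratio of all 101 members. It encodes one of the copies of the tetratricopeptide subunit called IFT70, and stood at 88.4 in PB-ID2 cells and 22.9 in PB cells, 3.74-fold apart (log2 ratio 1.90). Its PB value lay under the floor of 50, so it entered only through its PB-ID2 value, and its mean of 55.7 was the closest to the floor from above. The copy Ttc30a1, which the symbol rule did not take, stood at 113 in PB-ID2 cells and 61.7 in PB cells (0.86). The coding sequences of the copies are 1992 bases long and 94.9% identical (GENCODE M21), so reads may be shared between them, and their separate values are uncertain.

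IFT-A and dynein-2, of return transport, showed little difference. All 4 IFT-A members lay within 1.25-fold, beside 65.3% of all genes, and their median was -0.05. Ift140 stood at 1364 in PB-ID2 cells and 1431 in PB cells, and Ift122 at 633 in PB-ID2 cells and 647 in PB cells. Ttc21b, the subunit also called IFT139, had the lowest ratio of this particle (-0.17; 500.4 in PB-ID2 cells and 565 in PB cells), and Ift43 the highest (0.06; 396 and 380.2). Dync2h1, the motor heavy chain of dynein-2, stood at 308 in PB-ID2 cells and 283 in PB cells, and its light intermediate chain Dync2li1 at 328 in PB-ID2 cells and 350.3 in PB cells.

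The Bardet-Biedl genes held the other large differences. Bbs10 and Bbs12 encode chaperonin-like proteins that help to assemble the BBSome and are not subunits of it. Bbs12 stood at 124 in PB-ID2 cells and 51.7 in PB cells, 2.36-fold apart (1.24). Exons of Gm43439, a processed transcript on the same strand, overlap those of Bbs12. Bbs10 stood at 263 in PB-ID2 cells and 113 in PB cells, 2.31-fold apart (1.21). Bbs10 had the smallest unadjusted p of the members in the authors' deposited table, 0.0568, followed by Ttc30b at 0.0949. The third chaperonin-like gene, Mkks, lies outside the symbol rule and stood at 381 in PB-ID2 cells and 289 in PB cells (0.40).

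The bases upstream of Bbs10 and Bbs12 are shown because these 2 genes of one function stood higher together. The 200 bases before each start site (RefSeq, GRCm38.p6, + strand) are printed with GTTGC and its complement GCAAC in capitals.
Bbs10 (chr10:111298479-111298678): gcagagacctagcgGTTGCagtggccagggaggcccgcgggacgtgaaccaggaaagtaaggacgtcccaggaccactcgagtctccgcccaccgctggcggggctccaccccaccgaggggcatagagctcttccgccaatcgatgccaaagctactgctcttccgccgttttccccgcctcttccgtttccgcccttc
Bbs12 (chr3:37312354-37312553): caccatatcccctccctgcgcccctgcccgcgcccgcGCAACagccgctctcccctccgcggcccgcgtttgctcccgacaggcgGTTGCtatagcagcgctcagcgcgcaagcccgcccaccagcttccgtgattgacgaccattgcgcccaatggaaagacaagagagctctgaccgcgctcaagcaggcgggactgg
Within these 200 bases, Bbs10 held 1 half-site and Bbs12 held 2, and CAGCTG and CACCTG (either strand) were found 0 times in both.

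The 7 BBSome subunits were mixed, with 3 higher and 4 lower and a median of -0.02. Bbs1, which contacts membranes and cargo, stood at 701 in PB-ID2 cells and 478 in PB cells (0.55). Ttc8, the subunit also called BBS8, stood at 104 in PB-ID2 cells and 67.7 in PB cells, 1.52-fold apart (0.61), and was the least abundant subunit. Bbs2 was also higher, at 649 in PB-ID2 cells and 556 in PB cells. The other 4 subunits lay between -0.20 and -0.02. Bbs7, a partner of Bbs2 in the core, stood at 309 in PB-ID2 cells and 314 in PB cells, and Bbs9 had the lowest ratio (392 and 450 in the same order). Bbs4, which binds centriolar satellites, stood at 595 in PB-ID2 cells and 619 in PB cells, and Bbs5, which binds phosphoinositides, at 195 in PB-ID2 cells and 207 in PB cells.

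Small GTPases of the cilium had a median of -0.22 over 3 members. Arl6, which recruits the BBSome to membranes, stood at 503 in PB-ID2 cells and 499.6 in PB cells. Arl13b, a marker of the ciliary membrane that acts on Arl3, stood at 663 in PB-ID2 cells and 774 in PB cells, and Arl3, which releases lipidated cargo inside the cilium, at 721 in PB-ID2 cells and 888 in PB cells. Both of these were lower in PB-ID2 cells under every scaling tried, by less than 1.25-fold, and Arl6, at 0.01, was lower on the whole-number scale.

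Of 9 transition zone genes, 4 stood higher and 5 lower, with a median of -0.02 (3 and 6 on the whole-number scale). The tectonic genes were split. Tctn1 stood at 818 in PB-ID2 cells and 1027 in PB cells (-0.33), and Tctn2 at 746 in PB-ID2 cells and 613 in PB cells (0.28), while Tctn3 differed little (308 and 325 in the same order). The libraries do not keep strand, and Tctn1 exons overlap those of Hvcn1 on the other strand, so reads of these genes cannot be told apart there. Nphp4, a transition zone gene of nephronophthisis, stood at 1377 in PB-ID2 cells and 1082 in PB cells (0.35). Mks1, of the Meckel syndrome module, stood at 1198 in PB-ID2 cells and 1310 in PB cells. The scaffold genes Rpgrip1l (183 and 185) and Cep290 (224 and 215), again with PB-ID2 cells first, differed little.

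Distal appendages anchor the older centriole to the membrane, and a cap keeps centrioles from growing cilia. Cep164, an appendage protein that recruits the kinase Ttbk2, stood at 2542 in PB-ID2 cells and 2438 in PB cells, and the appendage genes Cep83 and Cep89 had ratios of -0.01 and 0.04. Cep97, a cap protein and partner of Ccp110, stood at 642 in PB-ID2 cells and 515 in PB cells (0.32). Cep19, which takes part in the entry of IFT-B at the ciliary base, stood at 375 in PB-ID2 cells and 285 in PB cells (0.40). Ofd1, a protein of the distal centriole and satellites, stood at 803 in PB-ID2 cells and 842 in PB cells. None of these 6 genes was 1.5-fold apart, where 8.00% of all genes were that much higher and 6.59% lower.

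**Figure D2:**
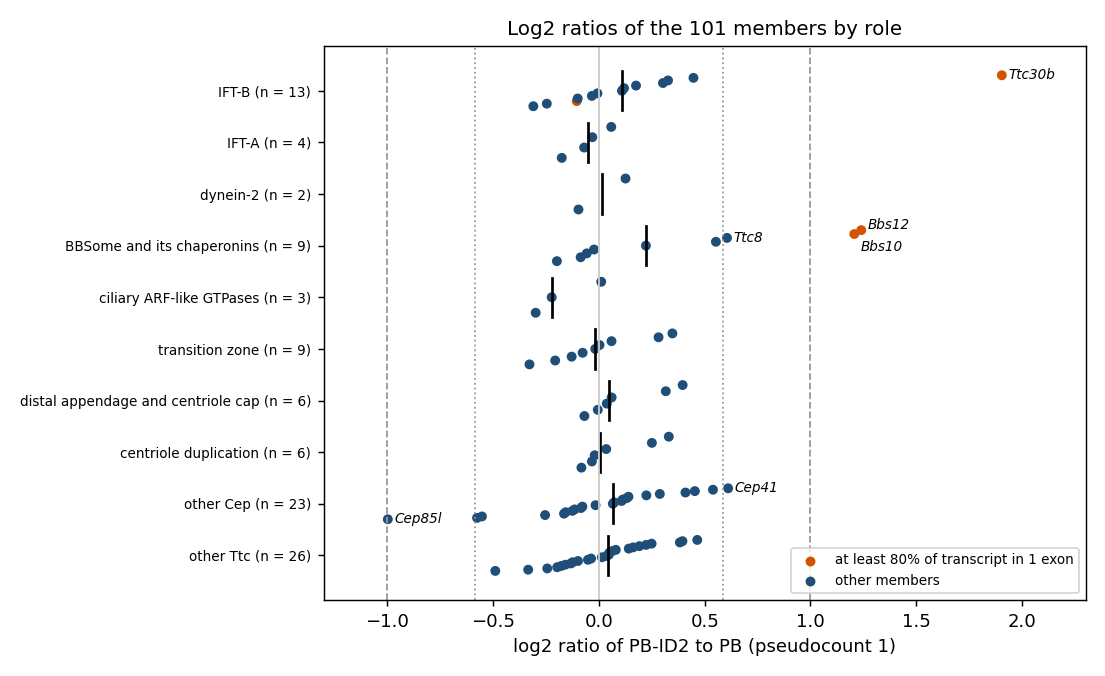
Log2 ratio of PB-ID2 to PB (horizontal axis) of the 101 members, 1 point per gene, by role; vertical bars are medians, dotted lines mark 1.5-fold and dashed lines 2-fold, and orange points are genes whose longest exon holds 80% of the transcript or more. The role medians lie between -0.22 and 0.22, and the 3 points beyond 2-fold are orange.

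Centriole duplication genes had a median of 0.01 over 6 members. Cep192, which recruits Plk4 and was the member with the highest value, stood at 7025 in PB-ID2 cells and 7121 in PB cells. Cep152, another Plk4 recruiter, stood at 842 in PB-ID2 cells and 892 in PB cells. Cep76, which limits duplication, had the highest ratio of the group, 0.33. Cep63, which acts with Cep152 around the parent centriole, stood at 358 in PB-ID2 cells and 301 in PB cells, and Cep63 exons overlap those of Anapc13 on the other strand.

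Among the 23 other Cep genes, 12 stood higher and 11 lower, with a median of 0.07. Cep41, a centrosomal and ciliary protein needed for tubulin glutamylation, stood at 304 in PB-ID2 cells and 199 in PB cells, 1.53-fold apart (0.61). Cep85l had the lowest ratio of all members, at 62.3 in PB-ID2 cells and 125 in PB cells (-0.998). That difference falls just short of 2-fold with the pseudocount and just past it in the authors' deposited table (log2 fold -1.01), and Gm47641, on the other strand, overlaps its exons. Its paralog Cep85 stood at 2785 in PB-ID2 cells and 3038 in PB cells, and so differed far less. Cep112 (-0.58) and Cep70 (-0.55), just inside 1.5-fold, were the next lowest, and exons of both overlap genes on the other strand. Cep162 (0.54) and Cep128 (0.45) were the next highest. These 4 genes were chosen after their values were seen. Per kilobase the most abundant was Cep55, a protein of the last step of cell division, at 1311 per kb in PB-ID2 cells and 1197 in PB cells.

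The 26 other Ttc genes had a median of 0.04, and none was 1.5-fold apart, where 8.00% of all genes were that much higher and 6.59% lower. Their ratios ran from -0.49 (Ttc25, a protein of motile cilia that docks outer dynein arms) to 0.46 (Ttc28). Ttc3, a ubiquitin ligase, had the highest value, 3380 in PB-ID2 cells and 3261 in PB cells, and Ttc9 the lowest mean, at 83.4 in PB-ID2 cells and 85.6 in PB cells. The 3 genes with a matching symbol under the floor were all Ttc genes and stood higher in PB-ID2 cells: Ttc41 at 56.3 in PB-ID2 cells and 35.8 in PB cells, Ttc29 at 55.3 and 28.9, and Ttc9b at 31.2 and 21.9, each with PB-ID2 cells first.

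**Figure D3:**
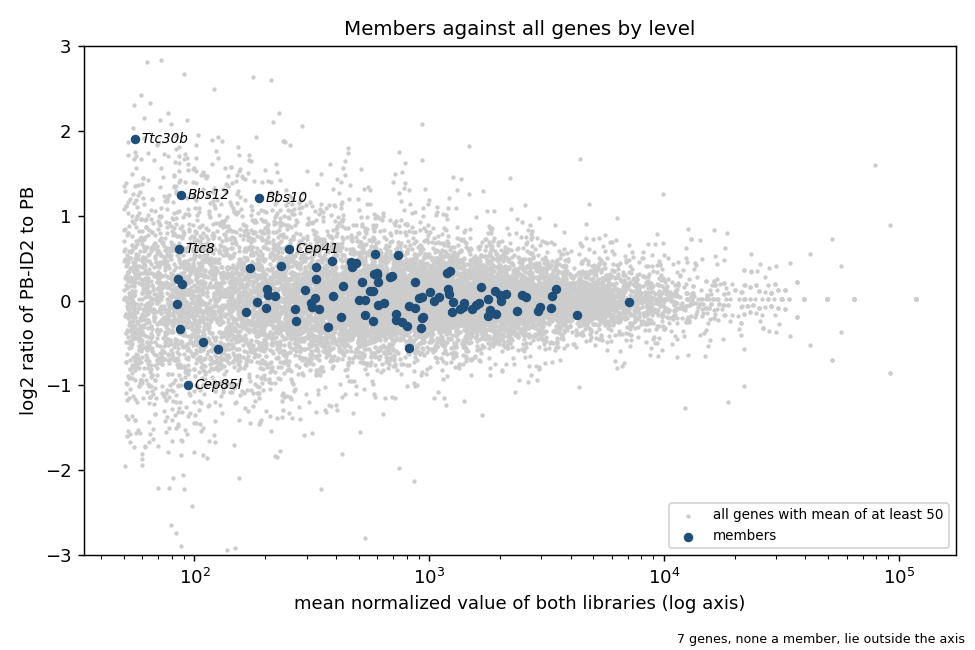
Log2 ratio of PB-ID2 to PB against the mean normalized value of both libraries (log axis) for the 101 members (blue) and all 12679 genes above the floor (grey). The members narrow around 0 as the level rises, and the 6 labelled genes are those at least 1.5-fold apart.

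Members of higher level lay closer together, as did all genes. Of the 34 members with a mean of at least 1000, 32 (94.1%) lay within 1.25-fold, beside 79.2% of 5459 genes at that level. Of the 48 members from 250 to 1000, 37 (77.1%) did, beside 63.3% of 4130 genes. The 3 members beyond 2-fold all had means under 250. From 50 to 100, 2 of 8 members were at least 2-fold higher, where 8.79% of 1240 genes were, and from 100 to 250, 1 of 11 members was, where 5.78% of 1850 genes were.

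The same 3 genes share an exon structure. In the GENCODE M21 annotation Ttc30b has 1 exon, and Bbs12 and Bbs10 have 2 exons of which the longest holds 98.7% and 91.7% of the transcript. Of 100 members with a coding entry, 4 had a longest exon that held 80% of the transcript or more: these 3 and Ift22 (84.0%), whose ratio was -0.10. Of the other 96 members, 0 reached 2-fold in either direction, and their median was 0.01. Across the table, 115 of 1573 genes of this class (7.31%) were at least 2-fold higher and 24 (1.53%) lower, with a median of 0.12, beside 1.53% and 1.42% of 10163 other coding genes and a median of -0.01. At the level of the 3 genes, with means from 50 to 250, 75 of 497 genes of the class (15.1%) were at least 2-fold higher and 20 (4.02%) lower, with a median of 0.26. The 95th percentile there was 1.61 and the highest ratio 3.07. Bbs12 and Bbs10 lay below that percentile, and Ttc30b lay above it but inside the range. Ttc30b had the lowest mean of the 3 and passed the floor only through its PB-ID2 value. Exon structure was examined after the values were seen, and its part in the 3 ratios was not tested.

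**Figure D4:**
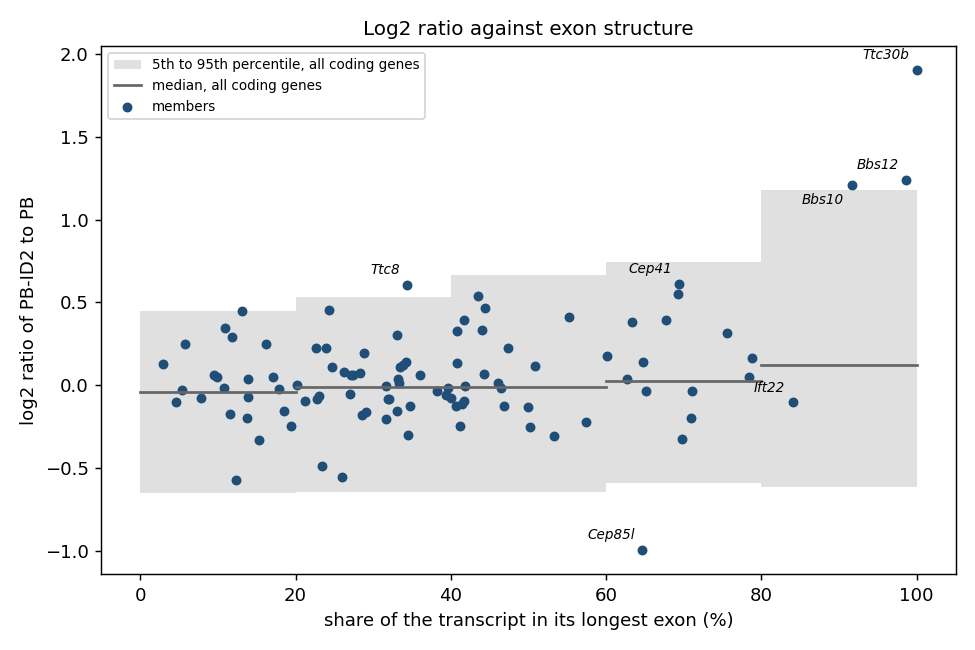
Log2 ratio of PB-ID2 to PB against the share of the transcript in its longest exon, in percent, for 100 members (points). Grey bars span the 5th to 95th percentile of all coding genes in 5 equal bins of the axis and grey lines their medians, and Ttc30b, Bbs12 and Bbs10, at the right edge, lie above the bar, which ends at 1.18 over genes of all levels. For genes of that class with means from 50 to 250, the 95th percentile is 1.61.

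Ciliary genes outside the symbol rule gave a like picture. Of 59 listed, 50 were above the floor, with a median of 0.03, 28 higher and 22 lower (26 and 23 on the whole-number scale). At least 1.5-fold higher were 5, beside 8.00% of all genes, and 1 was lower, beside 6.59%. Kif3b, a motor subunit of the kinesin-2 that drives IFT, stood at 1039 in PB-ID2 cells and 556 in PB cells (0.90), whereas its partners Kif3a (-0.27) and Kifap3 (0.00), named after their values were seen, did not share that direction. A pair of regulators of the start of ciliation with opposite actions both stood higher: Kif24, a kinesin that works with Ccp110 against cilia, at 672 in PB-ID2 cells and 366 in PB cells, and Ttbk2, the kinase that starts ciliation, at 375 in PB-ID2 cells and 227 in PB cells. Invs, of the inversin compartment, stood at 143 in PB-ID2 cells and 85.6 in PB cells, and Ttc30a1 was the other of the 5. Rpgrip1, a partner of Rpgr, was the 1 lower gene, at 105 in PB-ID2 cells and 171 in PB cells (-0.71). Exons of Invs overlap those of Tex10 on the other strand, and exons of Rpgrip1 those of Supt16, so their separate values are uncertain.

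Of 13 Hedgehog pathway genes above the floor, 9 stood higher and 4 lower, with a median of 0.32, where 49.8% of all genes stood higher and their median was -0.00229. The receptor-coupled transducer Smo stood at 1267 in PB-ID2 cells and 892 in PB cells (0.51), its negative regulator Sufu at 834 in PB-ID2 cells and 603 in PB cells (0.47), and the ligand-releasing Disp1 at 593 in PB-ID2 cells and 410 in PB cells (0.53). The transcription factor Gli2 stood at 6397 in PB-ID2 cells and 4704 in PB cells (0.44). Gli1 and Ptch1, both direct targets of the pathway, went opposite ways, at 0.32 (3003 in PB-ID2 cells and 2407 in PB cells) and -0.24 (2272 and 2683 in the same order). Gas1, a co-receptor, was the 1 gene at least 2-fold apart, at 49.2 in PB-ID2 cells and 103 in PB cells (-1.06), where 1.86% of all genes were at least 2-fold lower. Its PB-ID2 value lay under 50, so it entered only through its PB value. Ptch1 and Gli1 were named after their values were seen.

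Genes of the RFX family were split, and which of them act on ciliary genes in these cells was not tested. Rfx7 stood at 2147 in PB-ID2 cells and 1295 in PB cells (0.73), Rfx1 and Rfx3 had ratios of 0.27 each, Rfx2 of -0.10 and Rfx5 of -0.46. Foxj1, the regulator of motile cilia, stood at 342 in PB-ID2 cells and 442 in PB cells (-0.37). Ccno (24.1 in PB-ID2 cells and 95.5 in PB cells) and Myb (42.2 and 89.6, PB-ID2 cells first), both of multiciliated cell formation, were at least 2-fold lower, beside 1.86% of all genes. Both passed the floor only through their PB values. Rfx4, under the floor, went the other way, at 44.2 in PB-ID2 cells and 14.9 in PB cells. The 9 motile cilium markers above the floor, of 17 listed, had a median of -0.25 with 2 higher and 7 lower (1 and 8 on the whole-number scale), where 49.8% of all genes stood higher. Rsph1 (263 in PB-ID2 cells and 362 in PB cells) and Dnaic2 (229 and 299 in the same order) were lowest in ratio, and Ccdc40 highest (364 and 291). Under the floor, Rsph4a (58.3 and 27.9) and Tekt2 (63.3 and 35.8) stood higher in PB-ID2 cells, and with no floor the median was -0.0460. Centriole assembly genes outside the rule had a median of 0.03 over 19 genes, with Cenpj highest (450.2 in PB-ID2 cells and 287 in PB cells, 0.65) and Cntln lowest (78.4 and 127, -0.69).

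Markers of other cell types differed between the libraries. Of the 6 fibroblast and feeder markers, 4 were above the floor, with summed values of 1598 in PB-ID2 cells and 2265 in PB cells. Of these, 3 stood lower and Loxl1 higher (262 in PB-ID2 cells and 191 in PB cells), where 49.8% of all genes stood higher. Col1a2 and Tnc, under the floor, stood at 7.03 each in PB-ID2 cells and at 39.8 and 28.9 in PB cells. Of 5 neural markers listed, 4 were above the floor. Sox1 (782 in PB-ID2 cells and 386 in PB cells) and Tubb3 (1336 and 908) stood higher, and Nes (231 and 425) and Neurod1 (95.5 and 153) lower. Of 6 extraembryonic endoderm markers listed, 3 were above the floor. Sox7 (127 in PB-ID2 cells and 16.9 in PB cells) and Dab2 (62.3 and 53.7) stood higher and Gata4 (76.4 and 146) lower. Gata6, under the floor, stood at 34.2 in PB-ID2 cells and 31.8 in PB cells. Sox7 passed the floor only through its PB-ID2 value. Their part in the ciliary values was not tested, and in bulk RNA fewer cells of a type and less RNA per cell cannot be told apart.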

How the data were processed

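The data were 1 RNA sequencing library from PB-ID2 and 1 from PB 46C cells, prepared from Trizol extracts with TruSeq RNA v2, per the labels' protocols, whose reads carry no strand. STAR, DESeq and the build mm9 are named in the submitters' processing notes; for their versions, the annotation and the counting step the sources used here give nothing. The authors deposited a normalized signal per library, their mean, and a fold (ratio) with its log2 and p-value, unadjusted and adjusted. Every signal was a whole number of steps (0.995 in PB and 1.005 in PB-ID2, within 2.59e-05 of a step), and the sorted whole numbers were identical in both libraries (0 ranks differed; both summed to 25224015). The values are therefore not read counts, the depth is unknown, and no count test or interval was computed.

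Ratios were log2((PB-ID2 + 1)/(PB + 1)) for the 12679 genes with a mean of at least 50. Genes were called by size alone, at 2-fold and 1.5-fold. The ratio calculation was run on PB values multiplied by known folds, which checks the arithmetic alone and adds no variation between libraries. The members, the lists, the fold sizes and the rule for names were chosen with earlier results of these data known. Named were the members of ciliary roles, 2 of which are counted but not reported here one by one, of the other members those 1.5-fold apart or at an extreme of level, and of each outside list up to 6 with the largest ratios, up or down. Named outside that rule, after their values were seen, were Cep55, Cep70, Cep76, Cep85, Cep112, Cep128, Cep152, Cep162, Ttc25, Ttc28, Mkks, Kif3a, Kifap3, Gli1, Ptch1, Rfx1, Rfx2 and the genes of other lists under the floor. Symbols were matched to GENCODE M21 (GRCm38), the coding transcript with the longest coding sequence giving length and exons, and to RefSeq promoter windows. No position of the authors' build was used. Exons of 23 members overlap a gene on the other strand, a coding gene for 8 of them, Cep290 and Ofd1 among them. Overlaps on the same strand, such as that of Bbs12, are not in that count. Some genes of the outside lists overlap others too, Gli1 (with Arhgap9) among them. Python 3.11.15, numpy 2.4.6, pandas 2.3.3 and matplotlib 3.10.9 were used. Alternatives were pseudocounts of 0.1 and 10, division by the median ratio, whole steps, the authors' log2 column, no floor, a floor of 250, and member sets without other Ttc or Cep genes.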

Additional observations from a re-analysis of the deposited data

How the results depend on the processing

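Of 697 recomputed values, 679 stayed within 0.1 (log2) or 1.5 times (counts), 18 moved and 0 reversed. Only a ratio or median at least 1.5-fold apart in the main setting could be called reversed. Smaller values that changed sign, such as the Bardet-Biedl median (0.22 in the main setting), were counted as moved or as staying. Among ratios of single members, 2 of 505 moved, both with a pseudocount of 10, which gave 1.58 for Ttc30b and 1.11 for Bbs12. The scalings could hardly move a ratio past that tolerance, since the median ratio used was 0.998. Members at least 2-fold lower numbered 1 (Cep85l), not 0, with a pseudocount of 0.1, on whole steps and in the authors' log2 column, and whole steps gave 2 members at least 1.5-fold lower. With a floor of 250, 0 members were 2-fold higher, 1 was 1.5-fold higher and 0 were 1.5-fold lower; the medians were -0.0229 for the Bardet-Biedl genes, 0.0828 for cilium transcription factors and 0.56 for neural markers. Without a floor the medians were -0.0460 for motile cilium markers and -0.98 for fibroblast markers. Among ciliary roles alone, 0 members were 1.5-fold lower, beside 6.59% of all genes. Without the 4 members whose longest exon holds 80% or more of the transcript, an alternative chosen after seeing the data, 0 members were 2-fold higher and 2 were 1.5-fold higher, and the Bardet-Biedl median was -0.0229. No paired analysis was possible because each group had 1 library, and for the same reason no library could be left out.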
